A study of Mus musculus with 4 samples.

Results

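The Wnt modulators and Axin2, 10 genes of the Wnt pathway, were described across the cell classes of mouse bone marrow stroma and endothelium: Rspo2, Rspo3, Sfrp1, Sfrp2, Wif1, Dkk2, Dkk3, Lrp4, Lrp6 and Axin2. They were taken by name as 10 of the 32285 genes in the count tables, and all 10 were found in all 4 libraries. The rule uses names and no measured value, but the set was drawn up with earlier results of these data known. RNA was measured by 3′ single-cell sequencing, in which each molecule carries a unique molecular identifier (UMI), on cells sorted from the femurs of C57BL/6 Rag2-/-gammac-/- mice, which lack mature lymphocytes and the common gamma chain of cytokine receptors. Graft_D40 and Graft_D19 came from femurs injected 40 and 19 days earlier with DOHH2 cells, a human B-cell line established from follicular lymphoma. Sham_D40 came from mice injected with PBS, at day 40, and Ctrl from ungrafted mice. The knockout is thus shared by all 4 groups, and no sham of day 19 was among the samples. The labels give neither the age of the mice nor how many were pooled for a library. Cells negative for Cd45, Ter119 and Cd31 and positive for Cd51 and Cd200 entered as stroma, and Cd31-positive Sca1-positive cells as endothelium. Each group was 1 library, so no test between groups was possible and every interval below covers counting error only.

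Wnt ligands bind a Frizzled receptor together with the co-receptor LRP5 or LRP6, which stabilises β-catenin and lets it act with TCF and LEF factors on target genes. R-spondins amplify the signal by removing the ligases that clear Frizzled from the membrane. SFRP proteins and WIF1 bind the ligands themselves, whereas DKK2 acts at the co-receptor. In bone, Wnt signalling drives osteoblast formation, and marrow stromal cells are a source of both the amplifiers and the inhibitors.

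The libraries held 72204599 gene UMIs in Graft_D40, 51744386 in Sham_D40, 63214301 in Graft_D19 and 18533482 in Ctrl, with 4867, 4527, 4813 and 4074 cells kept in that order. Ctrl was the shallowest, with a median of 3549 UMIs in a kept cell against 8606 to 9796 in the other libraries. Cells were clustered without the 10 genes and without any gene of the other Wnt lists used below, so that class membership does not depend on their values. Classes were named from marker lists, and levels are in CPM (counts per 1e6), the share of a gene in all UMIs of its class. LepR-like stroma (Lepr, Cxcl12, Kitl and Adipoq among its markers) held 1481 cells in Graft_D40, 2054 in Sham_D40, 1846 in Graft_D19 and 1793 in Ctrl. Different clusters filled that class in different libraries. Cluster 14, led by Heyl, Col8a1 and Tnfsf11, held 1212 of its cells in Graft_D40, 49 in Sham_D40, 683 in Graft_D19 and 34 in Ctrl, while cluster 2 held 1315 of the Ctrl cells and cluster 3 held 1194 of the Sham_D40 cells. The summed LepR markers of the class stood at 29453 CPM in Graft_D40, 55152 in Sham_D40, 44014 in Graft_D19 and 47112 in Ctrl. The main values for LepR-like stroma are therefore also given without cluster 14. The clusters left differed in size as well. Of 269 such cells in Graft_D40, 131 were in cluster 6 and 75 in cluster 3. Of 2005 such cells in Sham_D40, 485 were in cluster 6 and 1194 in cluster 3. Cluster 2 held 17 of 1163 in Graft_D19 and 1315 of 1759 in Ctrl. What this make-up adds to the ratios without cluster 14 was not tested. Osteolineage-like cells were cluster 12, led by Mmp13, and cluster 17, led by Bglap and Ifitm5. Chondrocyte-like, fibroblast-like and endothelial cells made up the other classes described here, and small pericyte-like and haematopoietic-like classes were also named. Clusters 1, 18 and 20 had no name that stood and entered no class. They held 36, 128 and 223 cells in Graft_D40, 31, 0 and 0 in Sham_D40, 60, 7 and 66 in Graft_D19, and 10, 5 and 15 in Ctrl. The endothelium held 1270 to 1505 cells in each library. Different clusters filled it as well: cluster 9 held 11 cells in Graft_D40, 70 in Sham_D40, 94 in Graft_D19 and 692 in Ctrl, cluster 8 held 579, 126, 515 and 74 in that order, and the sinusoidal-like cluster 13 held 88, 416, 318 and 33. What this make-up adds to differences over the whole endothelium was not tested. The 12 endothelial markers summed to 11085 CPM there in Graft_D40, 11230 in Sham_D40, 11718 in Graft_D19 and 8942 in Ctrl, and none was at 0.

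**Figure D1:**
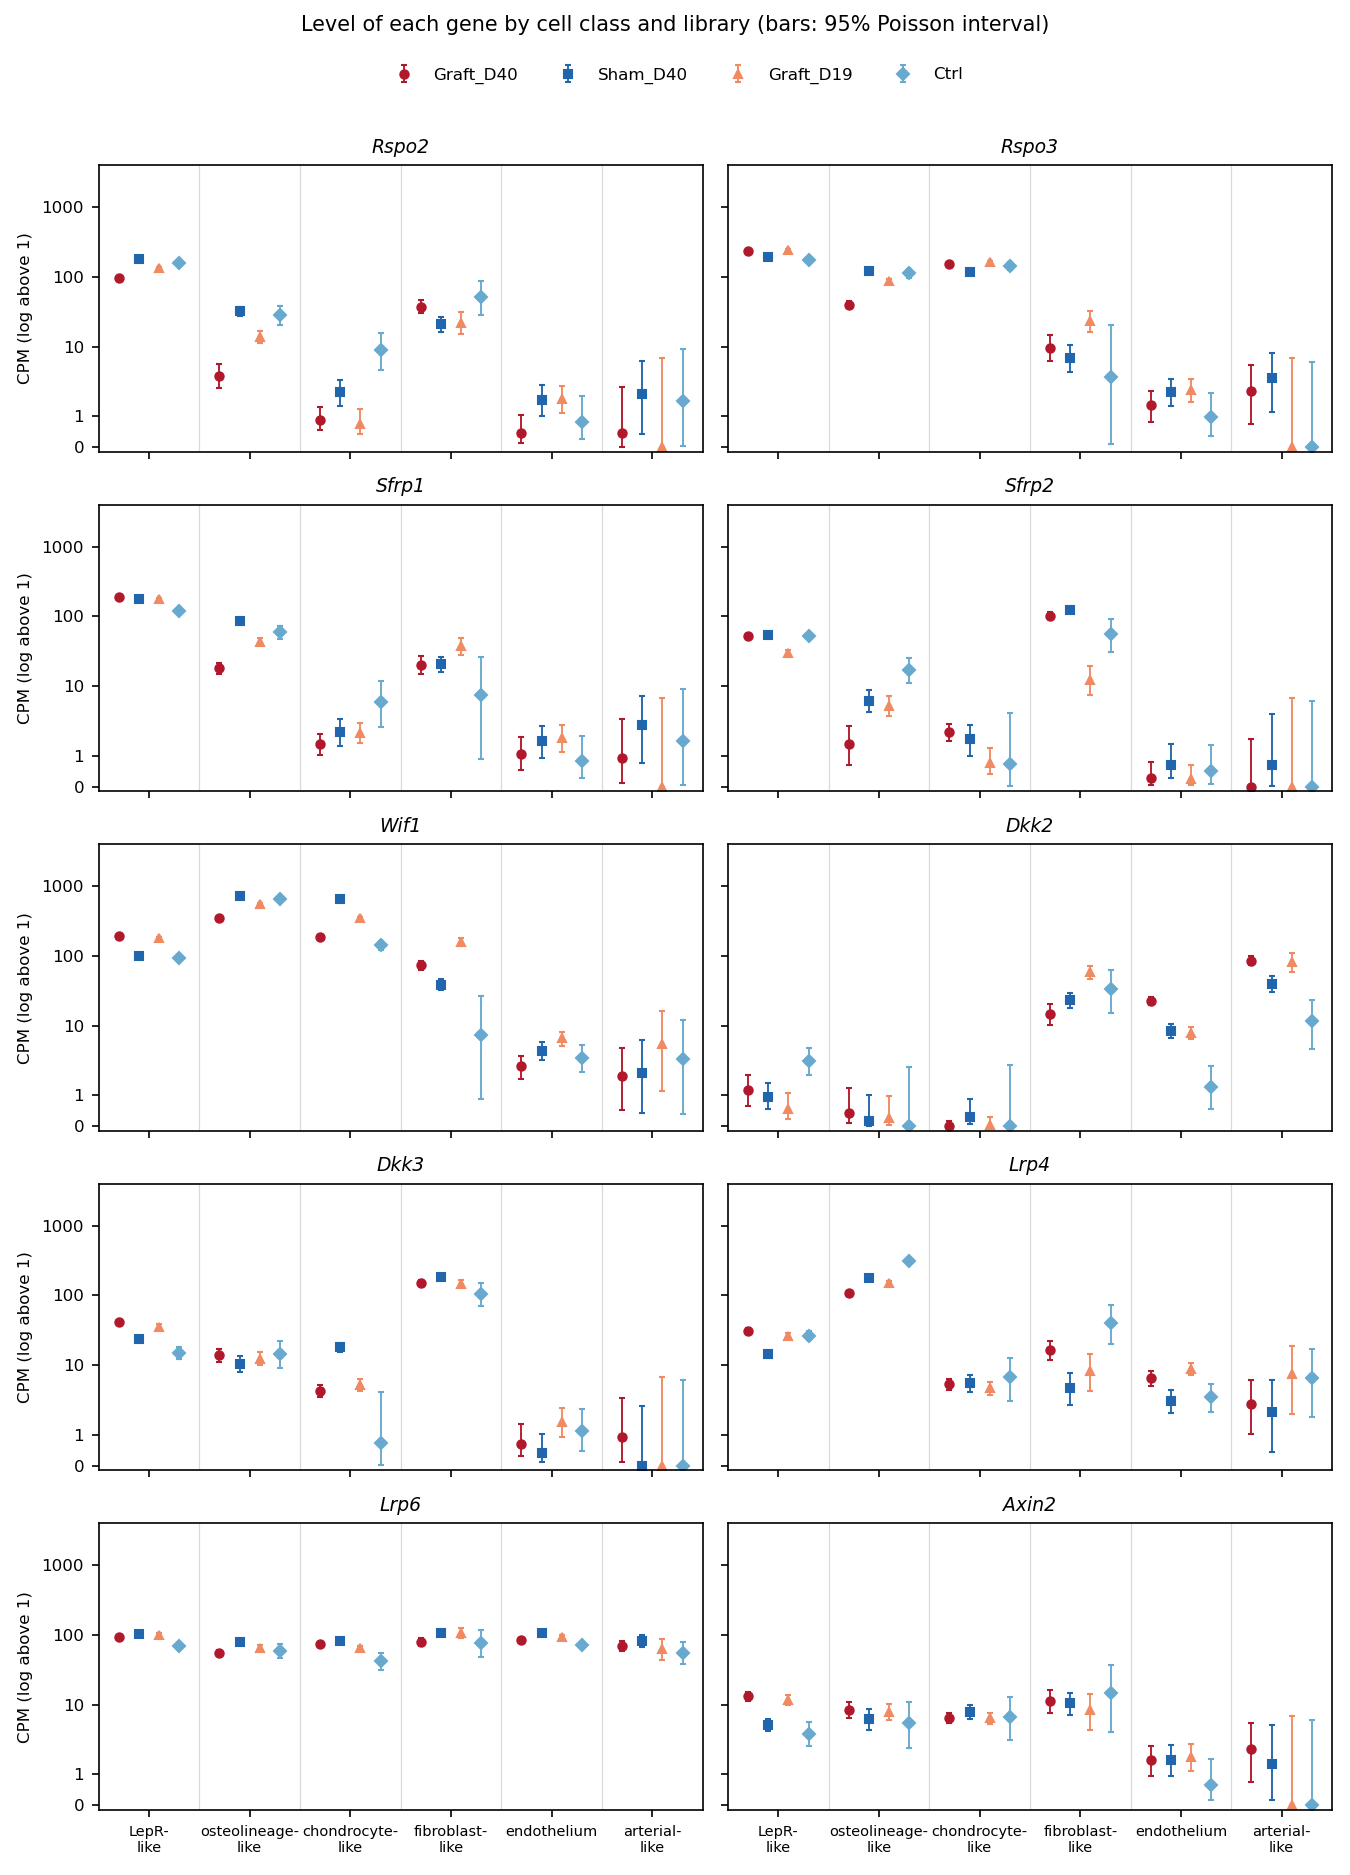
Level of each of the 10 genes in CPM (logarithmic above 1) in 6 cell classes, with 1 point for each library and exact Poisson 95% intervals as bars; arterial-like cells are also counted in the endothelium. Rspo2, Sfrp1 and Sfrp2 are low in chondrocyte-like and endothelial cells, Dkk2 is highest in arterial-like cells of 3 libraries and in fibroblast-like cells of Ctrl, and Lrp6 lies between 41.8 and 108 CPM throughout.

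A gene was called higher or lower in a class when the ratio of 2 libraries was at least 1.5-fold, its exact conditional binomial 95% interval lay off 1, and the mean level was at least 5 CPM. The same rule was applied to every gene of the class as background. In LepR-like stroma of Graft_D40 over Sham_D40, 9 of the 10 genes reached the minimum level. Axin2, Dkk3, Lrp4 and Wif1 were called higher and Rspo2 lower, that is 4 and 1 of 9, where 8.06% of all 10599 genes were called higher and 4.74% lower. The median log2 ratio was 0.32 over the 9 genes and 0.07 over all genes. Within cluster 14, Dkk3 was called higher and Wif1 lower, 1 and 1 of 9, against 4.45% and 5.57% of all genes. Without cluster 14 the calls were 3 higher (Axin2, Lrp4 and Wif1) and 3 lower (Rspo2, Sfrp1 and Sfrp2) of 9, against 6.26% and 3.75% of all genes. In Graft_D19 over Ctrl, Axin2, Dkk3 and Wif1 were called higher and Sfrp2 lower, 3 and 1 of 9, where 29.2% of all genes were called higher and 8.37% lower. The higher share at day 19 was close to the background of a comparison in which the median gene stood at a log2 ratio of 0.29.

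**Figure D2:**
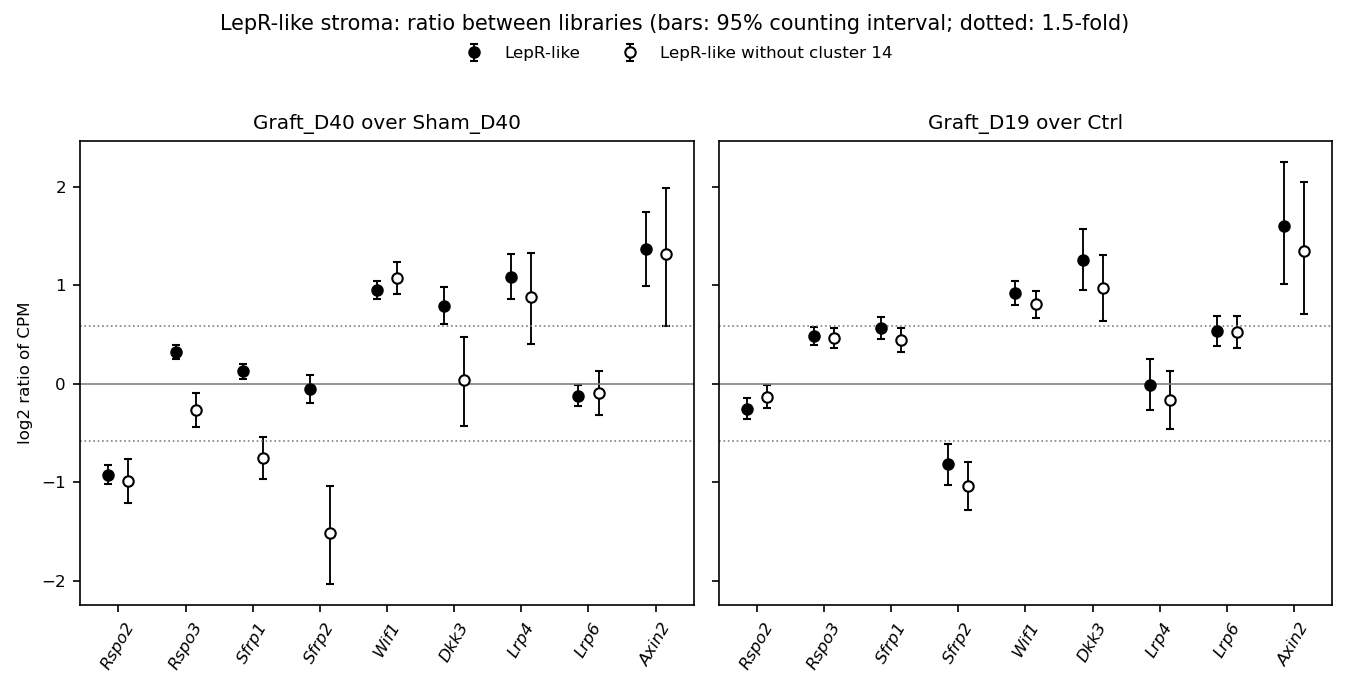
Log2 ratio of CPM for the 9 genes above the minimum level in LepR-like stroma, Graft_D40 over Sham_D40 on the left and Graft_D19 over Ctrl on the right; filled points are the whole class, open points leave out cluster 14, bars are 95% counting intervals and dotted lines mark 1.5-fold. Axin2 and Wif1 lie above the upper line in all 4 settings, and Sfrp2 at day 40 is at -0.05 with cluster 14 and at -1.51 without it.

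Rspo2 encodes a secreted R-spondin (ENSMUSG00000051920, mm10 chr15:43020794-43170826, minus strand). In LepR-like stroma it stood at 95.9 CPM in Graft_D40 (95% interval 90.6 to 101) and 182 CPM in Sham_D40 (176 to 188). Graft_D19 had 133 CPM and Ctrl 159 CPM. Graft_D40 was the lowest of the 4 libraries, and both grafted libraries were below both ungrafted ones. The level was 1.90-fold lower in Graft_D40 than in Sham_D40 (1.78 to 2.03) and 1.98-fold lower without cluster 14 (1.70 to 2.32), while Graft_D19 over Ctrl was 0.838-fold and was not called. Within cluster 14 it was at 96.5 CPM in Graft_D40, 126 in Sham_D40, 112 in Graft_D19 and 72.2 in Ctrl, and the 1.31-fold difference at day 40 was not called there. After thinning to 2000 UMIs, which kept 1418 LepR-like cells in Graft_D40, 2011 in Sham_D40, 1771 in Graft_D19 and 1509 in Ctrl, 15.4% of LepR-like cells held an Rspo2 UMI in Graft_D40, 27.3% in Sham_D40, 17.6% in Graft_D19 and 22.9% in Ctrl (unthinned 36.4%, 58.1%, 41.0% and 35.2%), against at most 0.248% of thinned endothelial cells in any library. Without cluster 14 the thinned shares were 15.5% in Graft_D40 (232 cells), 27.3% in Sham_D40, 20.6% in Graft_D19 and 23.0% in Ctrl. Rspo2 was lower outside this class, at 51.4 CPM or less in fibroblast-like, osteolineage-like, chondrocyte-like and endothelial cells of every library. The pooled mesenchymal stroma differed more: 29.9 CPM in Graft_D40 against 98.6 in Sham_D40, and 49.8 in Graft_D19 against 117 in Ctrl.

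Rspo3 encodes the related R-spondin, needed for vessel formation in mouse embryos (ENSMUSG00000019880, chr10:29452416-29535867, minus strand). It was at 237 CPM in LepR-like stroma of Graft_D40, 189 in Sham_D40, 243 in Graft_D19 and 174 in Ctrl, and neither comparison passed 1.5-fold. Without cluster 14 the direction at day 40 turned, with 157 CPM in Graft_D40 against 189 CPM in Sham_D40, while Graft_D19 was at 236 CPM and Ctrl at 171. Chondrocyte-like cells held it at a similar level, 155 CPM in Graft_D40, 118 in Sham_D40, 162 in Graft_D19 and 143 in Ctrl, where Rspo2 was at 0.890, 2.22, 0.765 and 8.97 CPM. The chondrocyte signal came from cluster 0 (Cnmd and Col9a1 among its leading genes), at 156 to 188 CPM, and not from cluster 24, led by Prg4, at 6.47 CPM or less. The 2 R-spondins thus shared LepR-like stroma and parted in cartilage. Rspo3 was also well above Rspo2 in osteolineage-like cells of Graft_D40 and Sham_D40, with values given below.

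Sfrp1 encodes a secreted Frizzled-related inhibitor (ENSMUSG00000031548, chr8:23411502-23449632, plus strand). LepR-like stroma held it at 191 CPM in Graft_D40, 175 in Sham_D40, 177 in Graft_D19 and 120 in Ctrl, and no comparison was called. Inside cluster 14 it was at 206 CPM in Graft_D40 and 138 in Sham_D40. In the other LepR-like clusters it was at 105 CPM in Graft_D40 and 176 in Sham_D40, 1.68-fold lower (1.46 to 1.96). The whole class therefore showed no call at day 40 although the remaining clusters did.

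Sfrp2 encodes a second inhibitor of that family (ENSMUSG00000027996, chr3:83766321-83774316, plus strand). Its level in LepR-like stroma was 52.5 CPM in Graft_D40, 54.4 in Sham_D40, 29.6 in Graft_D19 and 52.2 in Ctrl. Graft_D19 was the only library apart, 1.76-fold lower than Ctrl (1.53 to 2.03), and 2.05-fold lower without cluster 14 (1.73 to 2.43). At day 40 the split by cluster was wide: 58.3 CPM in Graft_D40 against 50.03 in Sham_D40 within cluster 14, but 19.1 CPM in Graft_D40 against 54.5 in Sham_D40 in the other clusters, 2.85-fold lower (2.05 to 4.10). The 10 cells with most Sfrp2 UMIs held 26.7% of the count in LepR-like cells of Graft_D40 and 14.4% in Sham_D40. Fibroblast-like cells held Sfrp2 at 102 CPM in Graft_D40, 123 in Sham_D40, 12.4 in Graft_D19 and 55.1 in Ctrl, but few cells carried it. UMIs were found in 8 of 189 cells in Graft_D40 (113 of 254 UMIs in 1 cell), 17 of 245 in Sham_D40 (158 of 391 in 1 cell), 5 of 131 in Graft_D19 and 2 of 61 in Ctrl (14 of 15 in 1 cell).

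Wif1 encodes Wnt inhibitory factor 1, a secreted protein that binds the ligands (ENSMUSG00000020218, chr10:121033960-121100650, plus strand). LepR-like stroma held it at 192 CPM in Graft_D40, with Sham_D40 at 99.4 CPM, and at 178 CPM in Graft_D19 against 94.3 in Ctrl. Both grafted libraries lay above both ungrafted ones. The ratios were 1.93-fold (1.82 to 2.06) and 1.89-fold (1.74 to 2.06), and 2.11-fold and 1.75-fold without cluster 14. Cluster 6, led by Egr1, Fosb and Fos, showed the same order, with 248 CPM in Graft_D40 against 93.0 in Sham_D40 and 192 in Graft_D19 against 76.2 in Ctrl. Cluster 14 did not: it was at 191 CPM in Graft_D40 and 312 in Sham_D40, 1.63-fold lower (1.36 to 1.95), from 49 cells in Sham_D40. The share of thinned LepR-like cells with a Wif1 UMI was 21.9% in Graft_D40, 15.0% in Sham_D40, 22.7% in Graft_D19 and 15.6% in Ctrl (unthinned 48.8%, 40.1%, 48.3% and 24.2%), against at most 1.09% in endothelium. Without cluster 14 the thinned shares were 23.7% in Graft_D40, 14.8% in Sham_D40, 19.5% in Graft_D19 and 15.2% in Ctrl. When LepR-like cells were taken by their own marker values and not by cluster, the day 40 log2 ratio was 0.24 and not called.

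The highest Wif1 levels lay outside LepR-like stroma. Osteolineage-like cluster 12 held 959 CPM in Graft_D40, 1140 in Sham_D40, 1036 in Graft_D19 and 853 in Ctrl, and cluster 24, with Prg4 (lubricin, a joint-surface gene) as its leading gene, held 1706, 1915, 2157 and 891 CPM in that order, with 10 cells in Ctrl. In neither cluster did a grafted library differ by 1.5-fold from Sham_D40. Pooled chondrocyte-like cells showed 185 CPM in Graft_D40 against 661 in Sham_D40, a 3.58-fold lower level (3.45 to 3.72). Within cluster 0 Graft_D40 was at 103 CPM and Sham_D40 at 311 CPM, 3.01-fold lower in Graft_D40 (2.83 to 3.20), so this difference was also present inside the largest chondrocyte-like cluster. Ctrl, however, was at 112 CPM in cluster 0 and Graft_D19 at 124 CPM, and Sham_D40 was the library that stood apart. In chondrocyte-like cells of Graft_D40 over Sham_D40, Wif1 and Dkk3 were called lower and none of the 10 genes higher, 2 and 0 of 6, where 6.78% and 1.62% of all genes were called.

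Dkk2 encodes a Dickkopf protein that binds LRP5 and LRP6 (ENSMUSG00000028031, chr3:132085292-132180304, plus strand). It was at or below 3.12 CPM in LepR-like stroma of every library, and was found in arterial endothelium and in a few fibroblast-like cells. Endothelium outside the arterial-like and sinusoidal-like clusters held it at a lower level. Arterial-like cells held 85.6 CPM in Graft_D40 and 40.02 in Sham_D40, 81.1 in Graft_D19 and 11.5 in Ctrl. The ratios were 2.14-fold (1.58 to 2.93) at day 40 and 7.06-fold (3.16 to 18.6) at day 19, and Dkk2 was the only one of the 10 genes called there, 1 of 2 tested at day 40 (4.35% of all genes called higher and 4.31% lower) and 1 of 3 at day 19 (9.61% and 6.53%). Sham_D40 was itself 3.48-fold above Ctrl (1.59 to 9.06). The arterial signal was that of cluster 11, led by Gja5, Sema3g and Gja4. Cluster 15, led by Car4 and Tcf15, is also arterial-like and held 1 Dkk2 UMI in all 4 libraries together.

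Within cluster 11 Dkk2 was at 152 CPM in Graft_D40 (156 cells) and 108 CPM in Sham_D40 (98 cells), and at 151 CPM in Graft_D19 (50 cells) and 53.1 CPM in Ctrl (57 cells). At day 40 the ratio there was 1.41-fold (1.04 to 1.93) and was not called, while at day 19 it was 2.84-fold (1.27 to 7.48). Cluster 11 made up 156 of 370 arterial-like cells in Graft_D40 and 98 of 303 in Sham_D40, and 50 of 112 in Graft_D19 and 57 of 331 in Ctrl. Counts were small: the values of Ctrl rest on 7 UMIs and those of Graft_D19 on 44, and the 10 richest cells of cluster 11 held 43.4% of the UMIs in Graft_D40, 71.9% in Sham_D40 and 88.6% in Graft_D19. Cluster 16, led by Vwf, held 34.0 CPM in Graft_D40, 32.3 in Sham_D40 and 16.4 in Graft_D19, and Ctrl had no UMI in its 21 cells there, which allows up to 47.9 CPM (3 counts). In the cycling cluster 10 of Graft_D19, 1 of 25 cells held all 17 UMIs, and 19 cells of Graft_D40 held none, which allows up to 9.38 CPM. The sinusoidal-like cluster 13 had no Dkk2 UMI in any library, which in Sham_D40, with 416 cells, allows up to 0.792 CPM. Across the whole endothelium Dkk2 was at 22.4 CPM in Graft_D40, with Sham_D40 at 8.37 CPM, 2.68-fold higher in Graft_D40 (2.08 to 3.49), and was the 1 call among 2 genes tested (7.54% of all genes called higher and 7.21% lower). It was at 7.92 CPM in Graft_D19 and 1.32 in Ctrl, a mean below the minimum.

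**Figure D3:**
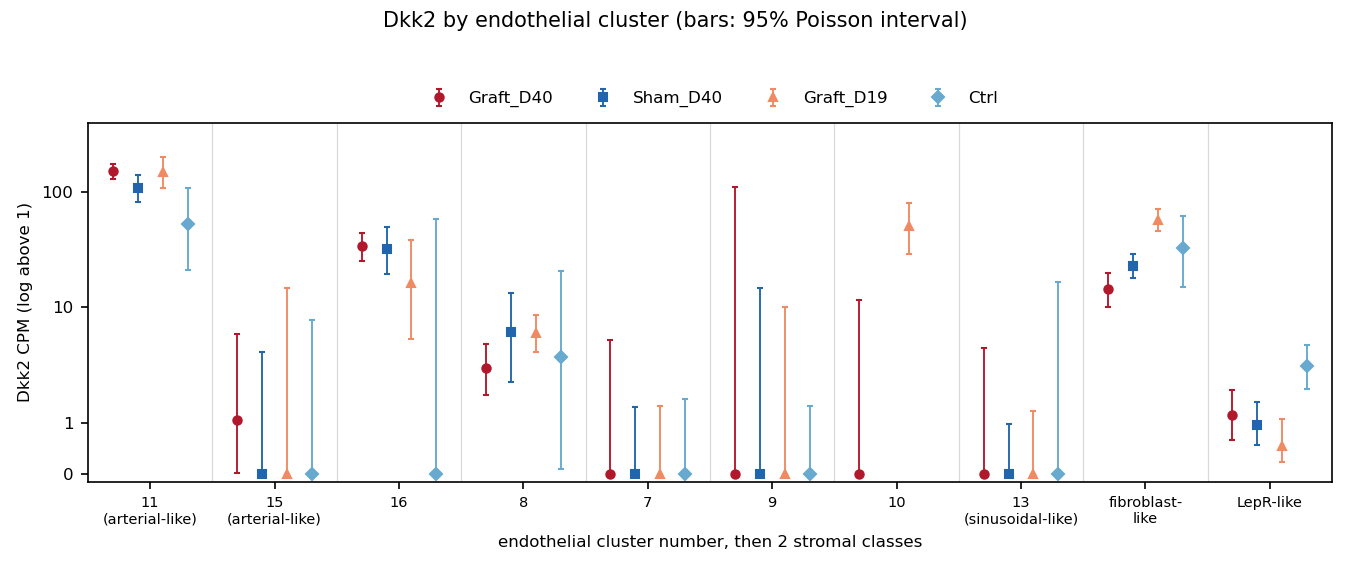
Dkk2 in CPM (logarithmic above 1) in each endothelial cluster and, on the right, in fibroblast-like and LepR-like stroma, with exact Poisson 95% intervals as bars; a library with fewer than 10 cells in a cluster is not drawn. Cluster 11 lies at 53.1 to 152 CPM, while cluster 15 and sinusoidal-like cluster 13 lie at or near 0.

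Fibroblast-like cells were the stromal class with Dkk2, at 14.5 CPM in Graft_D40, with Sham_D40 at 23.1 CPM, 1.59-fold lower in Graft_D40 (1.05 to 2.44), and at 57.9 CPM in Graft_D19 against 33.1 in Ctrl. It was found in 10 of 189 cells in Graft_D40, 12 of 245 in Sham_D40, 14 of 131 in Graft_D19 and 2 of 61 in Ctrl, and 1 cell held 23 of the 73 UMIs of Sham_D40. Without the richest cell of each library the ratio at day 40 was 1.45-fold lower and was not called.

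Dkk3 encodes a divergent Dickkopf family member (ENSMUSG00000030772, chr7:112116017-112159057, minus strand). It was highest in fibroblast-like cells, at 152 CPM in Graft_D40, 184 in Sham_D40, 148 in Graft_D19 and 106 in Ctrl. LepR-like stroma held 41.1 CPM in Graft_D40 against 23.7 in Sham_D40, 1.73-fold higher (1.52 to 1.97), and 35.6 CPM in Graft_D19 against 14.9 in Ctrl, 2.39-fold higher (1.93 to 2.97). Without cluster 14 the levels at day 40 were 24.4 CPM in Graft_D40 and 23.8 CPM in Sham_D40, and the call was lost; cluster 14 itself was at 44.0 CPM in Graft_D40. At day 19 the call held without it, with 29.5 CPM in Graft_D19 against 15.1 in Ctrl, 1.95-fold (1.55 to 2.47). Sham_D40 itself was 1.59-fold above Ctrl (1.28 to 1.99), and Graft_D19 over Sham_D40 gave a log2 ratio of 0.58 and no call. Chondrocyte-like cells went the other way at day 40, with 4.24 CPM in Graft_D40 against 18.2 in Sham_D40, 4.29-fold lower (3.34 to 5.53), and 1.88 CPM in Graft_D40 against 7.17 in Sham_D40 within cluster 0. Markers of fibroblast-like cells, the class with most Dkk3, moved with the LepR-like values: the 12 markers summed to 999 CPM in LepR-like cells of Graft_D40, 281 in Sham_D40, 411 in Graft_D19 and 186 in Ctrl, none at 0. Their part in the Dkk3 difference of LepR-like stroma was not tested.

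Lrp4 encodes a co-receptor that binds sclerostin and Dickkopf proteins in bone (ENSMUSG00000027253, chr2:91457511-91513779, plus strand). Osteolineage-like cluster 12 held the highest level, 219 CPM in Graft_D40, 239 in Sham_D40, 243 in Graft_D19 and 382 in Ctrl, and cluster 17 held 58.7, 77.2, 73.7 and 97.3 CPM in that order. Over both clusters together the levels were 107 CPM in Graft_D40 against 175 in Sham_D40, 1.63-fold lower (1.48 to 1.80), but cluster 12 alone differed 1.09-fold and cluster 17 alone 1.31-fold. The pooled call at day 40 was not seen in either cluster. In Graft_D19 over Ctrl it was, with 2.02-fold lower values over both (1.80 to 2.25) and 1.57-fold lower in cluster 12 (1.39 to 1.77). Sham_D40 was lower than Ctrl by a similar ratio in cluster 12, 1.60-fold (1.41 to 1.80), so Ctrl was the library apart.

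In LepR-like stroma Lrp4 stood at 30.6 CPM in Graft_D40, with Sham_D40 at 14.4 CPM, 2.12-fold higher (1.81 to 2.49), and 1.84-fold higher without cluster 14 (1.32 to 2.51). Graft_D19 had 26.2 CPM and Ctrl 26.4 CPM. Sham_D40 was thus the low library, and Graft_D40 over Ctrl gave a log2 ratio of 0.21 and no call. Endothelium held little Lrp4: 6.44 CPM in Graft_D40, 3.06 in Sham_D40, 8.74 in Graft_D19 and 3.46 in Ctrl. Lrp4 was the 1 call of 2 genes tested in endothelium of Graft_D19 over Ctrl, 2.53-fold higher (1.57 to 4.25), where 18.9% of all genes were called higher and 7.67% lower. The call was lost when the 10 cells with most Lrp4 UMIs were left out, and with doublets kept, where the log2 ratio was 0.31.

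Lrp6 encodes the co-receptor required for β-catenin signalling (ENSMUSG00000030201, chr6:134446476-134566965, minus strand). It was the most even of the 10 genes over the classes. LepR-like stroma held 93.5 CPM in Graft_D40, 102 in Sham_D40, 100 in Graft_D19 and 69.3 in Ctrl (95.5, 102, 99.6 and 69.2 CPM without cluster 14), and endothelium 84.8, 108, 94.1 and 72.3 CPM in that order. The ratio of Graft_D40 over Sham_D40 was 0.919-fold in LepR-like stroma and 0.787-fold in endothelium, with no call. Ctrl was the lowest library in both classes. In chondrocyte-like cells Lrp6 was called higher than in Ctrl both in Graft_D19 (1.57-fold) and in Sham_D40 (1.97-fold).

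Axin2 encodes a scaffold of the β-catenin destruction complex and is a widely used target gene and feedback inhibitor of Wnt signalling (ENSMUSG00000000142, chr11:108920349-108950783, plus strand). In LepR-like stroma it was at 13.1 CPM in Graft_D40 (168 UMIs, 11.2 to 15.3) against 5.10 CPM in Sham_D40 (96 UMIs, 4.13 to 6.23), and at 11.6 CPM in Graft_D19 (169 UMIs) against 3.83 CPM in Ctrl (27 UMIs). Both grafted libraries lay above both ungrafted ones, and their intervals did not meet. The ratios were 2.58-fold at day 40 (1.99 to 3.35) and 3.04-fold at day 19 (2.02 to 4.75). Without cluster 14 they were 2.49-fold (1.51 to 3.98) and 2.55-fold (1.63 to 4.13). Inside cluster 14 the levels were 13.3 CPM in Graft_D40, 14.3 in Sham_D40, 15.1 in Graft_D19 and 12.03 in Ctrl, with 6 UMIs in Sham_D40 and 1 in Ctrl.

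The Axin2 signal was thin in each cell. Of LepR-like cells thinned to 2000 UMIs, 2.12% held a UMI in Graft_D40, 0.995% in Sham_D40, 2.37% in Graft_D19 and 0.861% in Ctrl (unthinned 9.79%, 4.04%, 7.31% and 1.51%), against at most 0.570% of thinned endothelial cells. Without cluster 14 the thinned shares were 2.16% in Graft_D40, 1.02% in Sham_D40, 1.81% in Graft_D19 and 0.803% in Ctrl. Cluster 6 gave 15.9 CPM in Graft_D40 against 6.25 in Sham_D40, 2.54-fold higher (1.33 to 4.72). Cluster 4 gave a call from 3 UMIs in Graft_D40 and 6 in Sham_D40, at 23.5 CPM in Graft_D40 and 3.74 in Sham_D40. Cluster 3, the largest LepR-like cluster of Sham_D40, was not higher in Graft_D40, at 1.64 CPM (1 UMI in 75 cells) with Sham_D40 at 4.41 CPM (51 UMIs in 1194 cells), a mean below the minimum for a call. In cluster 12 Axin2 was at 11.6 CPM in Graft_D40 and 7.79 in Sham_D40, not called, and at 12.3 CPM in Graft_D19 and 4.67 in Ctrl, 2.64-fold higher (1.05 to 8.54). Chondrocyte-like cells held 6.53 CPM in Graft_D40 against 7.98 in Sham_D40, and fibroblast-like cells 11.3 CPM in Graft_D40 against 10.4 in Sham_D40, neither called. Over the LepR-like class as a whole both grafted libraries were thus above both ungrafted ones, and no such call was made at day 40 in chondrocyte-like or fibroblast-like cells.

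Axin2 and Wif1 were the 2 genes called higher in both grafted libraries with and without cluster 14, and RefSeq promoter windows were at hand for both. The bases before their start sites are shown for that reason, on build GRCm38.p6 and the plus strand, 5′ to 3′, at chr11:108920099-108920348 and chr10:121033754-121033959. The Wif1 window ends before the first base of the gene in the annotation.
Axin2: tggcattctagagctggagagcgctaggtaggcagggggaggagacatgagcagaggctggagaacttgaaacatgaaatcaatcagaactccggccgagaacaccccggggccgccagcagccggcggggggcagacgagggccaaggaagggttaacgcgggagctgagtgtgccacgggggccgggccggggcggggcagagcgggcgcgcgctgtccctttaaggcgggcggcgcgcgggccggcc
Wif1: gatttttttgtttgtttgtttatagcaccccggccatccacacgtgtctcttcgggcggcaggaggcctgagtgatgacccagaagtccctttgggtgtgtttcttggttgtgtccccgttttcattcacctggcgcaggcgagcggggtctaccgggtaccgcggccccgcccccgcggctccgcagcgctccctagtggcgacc
A TCF/LEF motif spelled CTTTG followed by AA, AT, TA or TT was looked for on both strands, and neither window held one, which is why no base is in capitals. Of all 32851 promoter windows, 14.8% held one of these spellings in the same 250 bases and 12.7% in the same 206 bases. G and C made up 69.2% of the Axin2 window and 61.7% of the Wif1 window, where the median windows of these lengths had 52.4% and 51.9%. Windows of Dkk2 and Sfrp2, the other 2 of 4 matched genes, held none of the spellings either.

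Osteolineage-like cells of Graft_D40 held less of several of these genes than those of Sham_D40. Rspo2, Rspo3, Sfrp1, Wif1 and Lrp4 were called lower and none higher, 5 and 0 of 8, where 26.7% of all genes were called lower and 3.03% higher. Rspo2 stood at 3.83 CPM in Graft_D40 and 31.8 in Sham_D40, Rspo3 at 39.7 in Graft_D40 and 120 in Sham_D40, and Sfrp1 at 18.1 in Graft_D40 and 86.2 in Sham_D40. Within cluster 12, Rspo2 was at 10.2 CPM in Graft_D40 and 49.2 in Sham_D40, 4.83-fold lower in Graft_D40 (3.05 to 8.01). Sfrp1 was there at 50.4 CPM in Graft_D40 and 139 in Sham_D40, 2.76-fold lower (2.23 to 3.45), and Rspo3 at 123 CPM in Graft_D40 and 194 in Sham_D40, 1.57-fold lower (1.36 to 1.83). Sfrp2, with a pooled mean below the minimum, was at 3.40 CPM in Graft_D40 and 9.59 in Sham_D40 in cluster 12, 2.83-fold lower (1.22 to 7.58), a call lost without the richest cell of each library. Thus the calls of Rspo2, Rspo3 and Sfrp1 were also seen within cluster 12, and those of Wif1 and Lrp4 were not. The share of all genes called within cluster 12 is not given here, so these calls cannot be set against a background. Rspo2, Rspo3 and Sfrp1 were also held by LepR-like stroma. Rspo3 was not particular to it: chondrocyte-like cells held it too, and in Sham_D40 cluster 12 was as high as LepR-like stroma. Markers of LepR-like stroma moved in the same direction at day 40. The 12 LepR markers summed to 6505 CPM in cluster 12 of Graft_D40, 16223 in Sham_D40, 12227 in Graft_D19 and 11527 in Ctrl, none at 0. Their part in these differences was not tested. In Graft_D19 over Ctrl, Rspo2, Sfrp2 and Lrp4 were called lower and none higher, 3 and 0 of 9, where 11.5% of all genes were called lower and 13.1% higher.

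**Figure D4:**
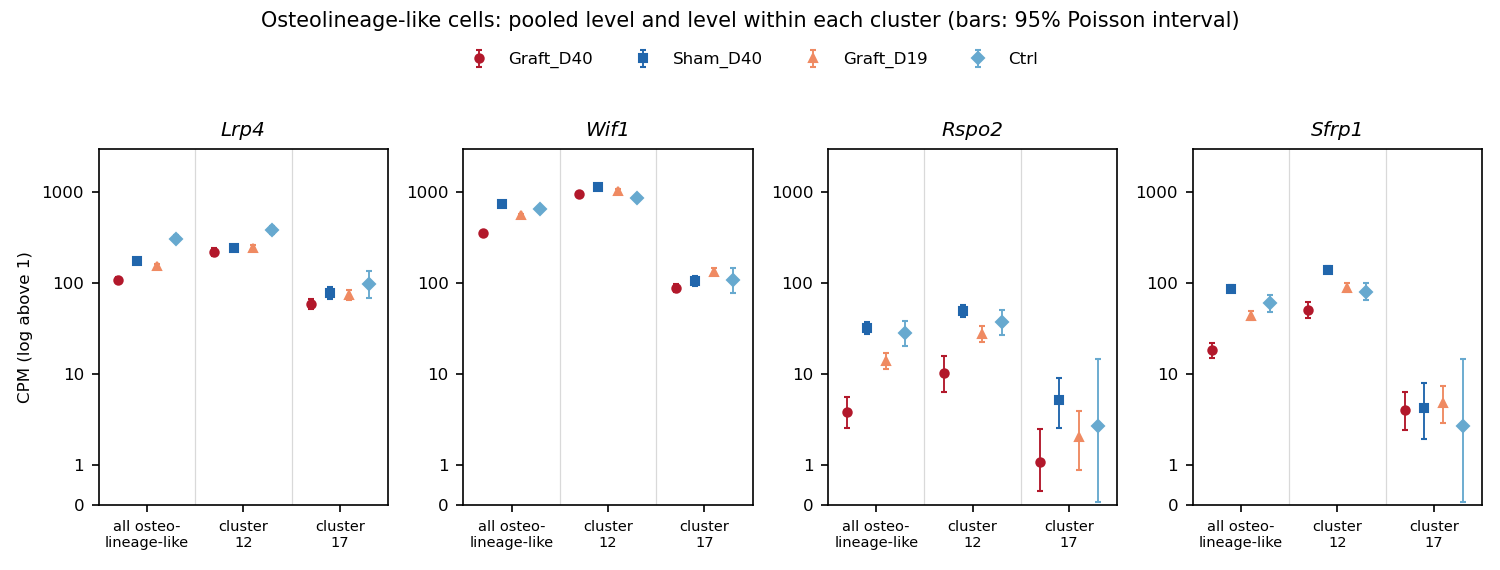
Lrp4, Wif1, Rspo2 and Sfrp1 in CPM (logarithmic above 1) in all osteolineage-like cells and in their clusters 12 and 17, 1 point for each library with exact Poisson 95% intervals. Lrp4 and Wif1 in Graft_D40 lie below Sham_D40 over both clusters together and close to it within each, while Rspo2 and Sfrp1 lie below it in cluster 12 as well.

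In fibroblast-like cells of Graft_D40 over Sham_D40, Rspo2, Wif1 and Lrp4 were called higher and Dkk2 lower, 3 and 1 of 10, where 4.72% of all genes were called higher and 3.56% lower. Rspo2 stood at 37.5 CPM in Graft_D40 and 21.2 in Sham_D40, Wif1 at 73.8 in Graft_D40 and 38.5 in Sham_D40, and Lrp4 at 16.5 in Graft_D40 and 4.74 in Sham_D40. The Rspo2 value rests on few cells: 1 cell held 29 of the 93 UMIs of Graft_D40, 10.6% of cells held a UMI in Graft_D40 and 12.7% in Sham_D40, and without the richest cell of each library the ratio was 1.37-fold and not called. The calls of Wif1 and Lrp4 were kept without it. In Ctrl 1 cell held 13 of the 14 Rspo2 UMIs and 1 cell 6 of the 11 Lrp4 UMIs.

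Over the mesenchymal stroma as 1 pool, Rspo2, Sfrp1, Sfrp2 and Wif1 were called lower in Graft_D40 than in Sham_D40 and none higher, 4 and 0 of 9, where 10.3% of all genes were called lower and 5.24% higher. Chondrocyte-like cells made up 1003 of 3019 cells of that pool in Graft_D40 and 439 of 3133 in Sham_D40. Without them Rspo2 stayed lower, Axin2 was higher, at 11.5 CPM in Graft_D40 against 5.93 in Sham_D40, and the other 3 were not called. In Graft_D19 over Ctrl, Axin2 and Wif1 were called higher and Rspo2, Sfrp2 and Lrp4 lower, 2 and 3 of 9, against 18.7% and 13.5% of all genes. Over Sham_D40, Rspo2, Sfrp2 and Dkk3 were called lower and none higher, and Wif1 and Lrp4 turned direction. Shares of all genes called are not given for Graft_D19 over Sham_D40 or for the pool without chondrocyte-like cells. Those calls therefore cannot be set against a background.

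The 2 ungrafted libraries differed among themselves. In Sham_D40 over Ctrl, Wif1 and Dkk3 were called higher and Lrp4 lower in mesenchymal stroma, 2 and 1 of 9 (23.6% and 10.3% of all genes), and Dkk3 higher and Lrp4 lower in LepR-like stroma, 1 and 1 of 8 (26.2% and 10.6%). In endothelium the calls were 0 higher and 0 lower of 1 (20.4% and 8.91%). These ratios share libraries with the graft comparisons and give the scale of a difference between ungrafted libraries. In LepR-like stroma Wif1 was at 99.4 CPM in Sham_D40 and 94.3 CPM in Ctrl and was not called. Axin2, at 5.10 CPM in Sham_D40 and 3.83 CPM in Ctrl, had a mean below the minimum and so could not be called.

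Lists of other Wnt genes were read beside the 10. In LepR-like stroma of Graft_D40 over Sham_D40, 6 of 10 tested feedback and target genes were called higher and 0 lower, with a median log2 ratio of 0.82 against 0.07 for all genes, of which 8.06% were called higher and 4.74% lower. They were Ccn4, Ccn5, Nkd1, Nkd2, Ccnd1 and Myc; Myc, and Sp5 and Rnf43 below, are named after their values were seen. Ccn4, a matricellular protein induced by Wnt, was at 97.3 CPM in Graft_D40, with Sham_D40 at 4.47 CPM, 21.8-fold higher in Graft_D40 (17.5 to 27.5), and at 26.7 CPM in Graft_D19 against 4.82 in Ctrl, 5.55-fold higher (3.90 to 8.13). The summed fibroblast markers given with Dkk3 above were also higher in LepR-like cells of Graft_D40 than in those of Sham_D40. Their part in the Ccn4 and Ccn5 values was not tested. Nkd2, a Dishevelled-binding feedback inhibitor, was at 78.0 CPM in Graft_D40, 29.7 in Sham_D40, 43.6 in Graft_D19 and 15.3 in Ctrl. Its relative Nkd1 was at 27.1 CPM in Graft_D40, 11.5 in Sham_D40, 15.0 in Graft_D19 and 8.65 in Ctrl. In Graft_D19 over Ctrl, 3 of 10 were called higher and 0 lower, with a median of 0.56 against 0.29. That share is at the background of the comparison, where 29.2% of all genes were called higher and 8.37% lower.

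Without cluster 14, 6 of 11 targets were called higher at day 40 and 0 lower, with a median of 0.75 against 0.05, where 6.26% of all genes were called higher and 3.75% lower. Ccn4 was then at 39.3 CPM in Graft_D40, with Sham_D40 at 4.51 CPM, Nkd2 at 56.8 CPM in Graft_D40 and 28.9 CPM in Sham_D40, and Nkd1 at 28.1 CPM in Graft_D40 and 11.4 CPM in Sham_D40. Not every target was called: Tnfrsf19 was at 241 CPM in Graft_D40, 218 in Sham_D40, 244 in Graft_D19 and 169 in Ctrl. Sp5 and Rnf43 were below 1 CPM in every library, under the minimum level, and so could not be called. In Sham_D40 over Ctrl 1 of 8, Nkd2, was called higher and 0 lower, against 26.2% and 10.6% of all genes.

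**Figure D5:**
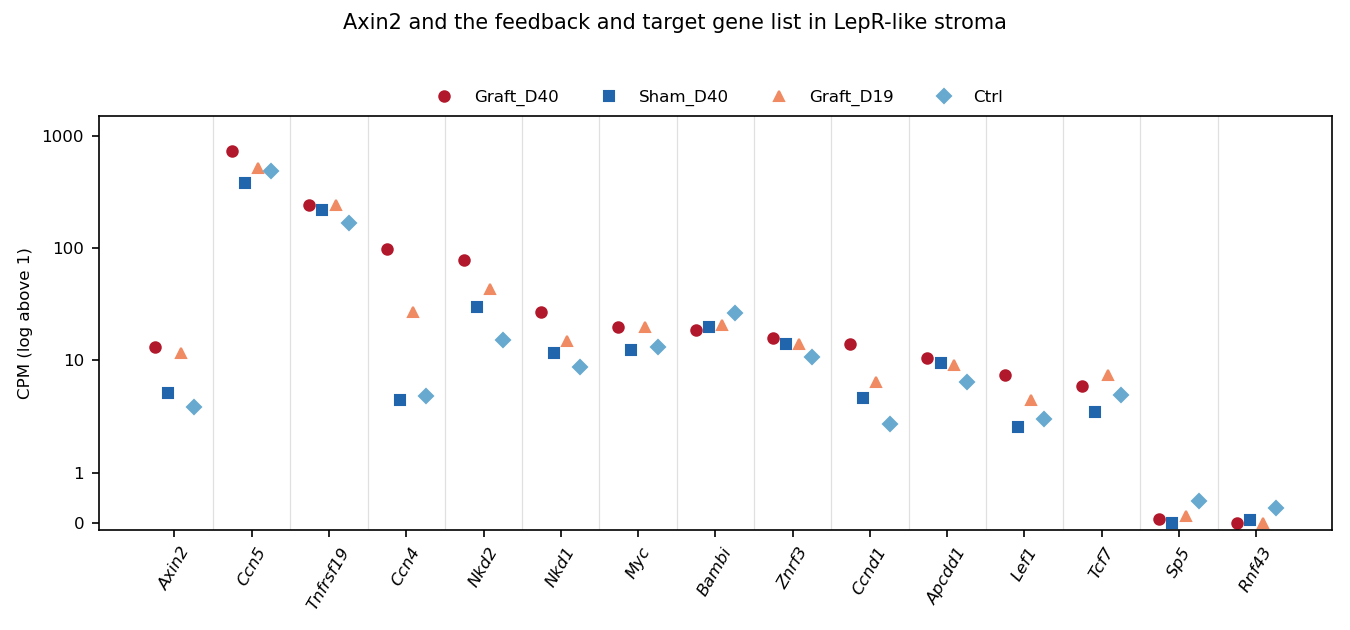
Axin2 and the 14 measured feedback and target genes in LepR-like stroma, in CPM (logarithmic above 1), with 1 point for each library. Ccn4 in Graft_D40 stands at 97.3 CPM and Nkd2 at 78.0 CPM, above the other 3 libraries, whereas Tnfrsf19 lies between 169 and 244 CPM.

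Among ligands of LepR-like stroma, 2 of 4 were called higher at day 40 and 0 lower, where 8.06% of all genes were called higher and 4.74% lower: Wnt11, a ligand of the planar cell polarity branch, at 23.1 CPM in Graft_D40, with Sham_D40 at 7.55 CPM, and Wnt5b at 9.47 CPM in Graft_D40 and 6.22 CPM in Sham_D40. Wnt4 was at 119 CPM in LepR-like cells of Graft_D40 and 131 CPM in Sham_D40, not called. Of 15 receptors and co-receptors, Lrp5 and Ror1 were called higher and Fzd1, Fzd9 and Lgr5 lower, against the same shares of all genes. Lgr5, a receptor for R-spondins, was at 6.26 CPM in Graft_D40, with Sham_D40 at 53.2 CPM, 8.49-fold lower in Graft_D40, and at 9.86 CPM in Graft_D19 against 99.0 in Ctrl, 10.0-fold lower. Sfrp4, another secreted inhibitor, was at 525 CPM in Graft_D40, with Sham_D40 at 1047 CPM, lower in Graft_D40 and the 1 call of 5 other modulators. Without cluster 14 Wnt11 was at 13.8 CPM in Graft_D40 and 7.72 in Sham_D40, Lgr5 at 5.31 in Graft_D40 and 53.8 in Sham_D40, and Sfrp4 at 571 in Graft_D40 and 1054 in Sham_D40, all called. Ror1, Fzd1 and Fzd9 kept their calls there too, and Lrp5 and Wnt5b lost theirs. Of the 12 core components of the pathway, 0 were called in either direction at day 40. At day 19 over Ctrl, 5 of the 12 were called higher, among them Dvl1, Dvl3 and Axin1, and 0 lower, where 29.2% of all genes were called higher.

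In the endothelium 2 of 5 tested targets, Ccn4 and Ccn5, were called higher at day 40 and 0 lower, where 7.54% of all genes were called higher and 7.21% lower. Ccn4 was at 14.4 CPM in Graft_D40, 4.18 in Sham_D40, 13.1 in Graft_D19 and 2.31 in Ctrl. Markers of cartilage summed to 372, 140, 257 and 31.0 CPM in endothelium in that order, with 1 of 12 at 0 in Graft_D19 and in Ctrl, and fibroblast markers to 789, 290, 338 and 105 CPM, with 1 of 12 at 0 in Ctrl. Their part in the Ccn4 values was not tested. Axin2 was at 1.61 CPM in endothelium of Graft_D40 and 1.63 in Sham_D40.

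For 9 of the 10 genes, those reaching 20 CPM in some class, the genes with the most similar pattern were taken by Pearson's r of log2(CPM + 1) over 24 pairs of class and library, which share libraries and cell classes. Rspo2 was nearest to Serping1 (r = 0.966), Eya2 and Fst, Sfrp1 to Ptgfr (r = 0.979), Eya4 and Cdh11, and Sfrp2 to Fgl2 (r = 0.945), Zfp703 and Ebf2. Rspo3 was nearest to Smim1 (r = 0.964), Wif1 to Pak1 (r = 0.947) and Pth1r, and Lrp4 to Angpt4 (r = 0.921). Dkk2 was nearest to Gprc5a (r = 0.955), Sfxn3 and Cdh13, Dkk3 to Fam171b (r = 0.952) and Col3a1, and Lrp6 to Canx (r = 0.935). These likenesses mainly order the genes by the class that holds them.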

How the data were processed

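The authors deposited raw UMI counts for each gene in each barcode. Cell Ranger 5.0.0 is named as the source, per the file headers, and version 3.1.0 with build mm10 per the submitters' processing notes. Antibody features (2 each in Sham_D40 and Graft_D40) were left out. Gene positions came from GENCODE vM21, which held 32235 of 32285 gene IDs. Cells with 500 genes, 1000 UMIs and at most 10% mitochondrial UMIs were kept, and Scrublet doublets (262 in all) were removed. Any 2 libraries shared 11 to 15 barcodes. After scaling to 10000 per cell, 2000 variable genes without the Wnt genes, 30 components and 15 neighbours gave 28 Leiden clusters at resolution 1.0 (scanpy 1.11.5, igraph 0.11.9, Python 3.11.15), with no alignment of libraries. A cluster took the type with most markers at 2-fold or more, at least 3. UMIs of all cells in a class were added up. A library at 0 entered a ratio at 3 counts. The calculation was tested on simulated data. The 10 genes and the gene lists were chosen with earlier results of these data known. All 10 are named; a list gene is named at 20 CPM or more among the 3 largest called folds of its list in mesenchymal stroma, LepR-like stroma or endothelium, or among the 2 most abundant ligands or targets. Alternatives were other scalings, minimum levels, cell classes, cell filters, weights and the other ungrafted library, and, chosen after seeing the data, sums without the cell richest in a gene in each library. UMIs of 3′ libraries do not separate overlapping genes on the same strand.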

Additional observations from a re-analysis of the deposited data

Results flagged for a closer look

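For 5 genes a call in one class was opposite to that in another, in Graft_D40 over Sham_D40. The differences between classes were not tested. Rspo2 had a log2 ratio of 0.83 in fibroblast-like cells, but -0.92 in LepR-like and -3.06 in osteolineage-like cells. In fibroblast-like cells 1 cell held 29 of the 93 UMIs of Graft_D40, and the call was lost without the richest cell of each library. Wif1 had 0.95 in LepR-like and 0.94 in fibroblast-like cells, but -1.06 in osteolineage-like and -1.84 in chondrocyte-like cells. Lrp4 had 1.09 in LepR-like and 1.80 in fibroblast-like cells, but -0.71 in osteolineage-like cells. The osteolineage-like calls of Wif1 and Lrp4 were made over clusters 12 and 17 together and were not seen within cluster 12. Dkk3 had 0.79 in LepR-like cells, a call lost without cluster 14, and -2.10 in chondrocyte-like cells, whose clusters differed in size between libraries. Dkk2 had 1.42 in endothelium and -0.67 in fibroblast-like cells, where the call was lost without the richest cell of each library.

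In Graft_D19 over Ctrl, Lrp4 had a log2 ratio of 1.34 in endothelium, but -1.01 in osteolineage-like and -2.29 in fibroblast-like cells, and the last of these calls was lost without the richest cell of each library. In Sham_D40 over Ctrl, Sfrp2 had 1.16 in fibroblast-like and -1.48 in osteolineage-like cells. The fibroblast-like value compares UMIs in 17 cells of Sham_D40, 158 of 391 in 1 cell, with UMIs in 2 cells of Ctrl, 14 of 15 in 1 cell. These differences were not tested either.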

How the results depend on the processing

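Of 20 calls of single genes in mesenchymal stroma, LepR-like stroma and endothelium, 7 were kept under every alternative run, and of 249 recomputed values 224 kept the call, 21 lost it in the same direction and 4 turned. Wif1 in mesenchymal stroma of Graft_D40 turned to 0.20 on the log2 scale over Ctrl and to 0.0582 without chondrocyte-like clusters. In Graft_D19 over Sham_D40, Wif1 turned to -0.0616 and Lrp4 to 0.15. The calls in other classes were not run under these alternatives. After the data were seen, 72 calls over 9 classes and clusters were recomputed without the cell richest in the gene in each library: 64 were kept and 8 lost, 6 of them among the 15 in fibroblast-like cells. There Rspo2 turned to 2.03 in Graft_D19 over Ctrl and 2.32 in Sham_D40 over Ctrl, and Sfrp2 to 0.72 in Graft_D19 over Ctrl. Axin2 in LepR-like stroma lost its call only at a minimum of 20 CPM, by construction, and otherwise lay between 1.19 and 2.05 at day 19 and 1.19 and 1.78 at day 40. The count of genes called in mesenchymal stroma of Graft_D40 over Sham_D40 (4) was 2 with cells weighted equally and 2 without chondrocyte-like clusters, Rspo2 and Axin2 each time. In mesenchymal stroma of Graft_D19 over Ctrl (5) it was 3 over Sham_D40 (Rspo2, Sfrp2 and Dkk3). In endothelium of Graft_D40 over Sham_D40 (1) it was 2 with the total taken without the 50 most abundant genes, 4 with no minimum, 0 at 20 CPM and 2 with classes by marker values. In endothelium of Graft_D19 over Ctrl (1) it was 2 with median-of-ratios scaling, 3 without the 50 genes, 3 with no minimum, 0 at 20 CPM, 2 with classes by marker values, 0 with doublets kept, 2 at 2000 UMIs per cell and 0 without the 10 richest cells. In Sham_D40 over Ctrl, LepR-like stroma (2) gave 1 with median-of-ratios scaling, 1 at 20 CPM and 4 without the 10 richest cells, and endothelium (0) gave 1 without the 50 genes, 1 with no minimum, 2 with doublets kept, 1 with cells weighted equally and 1 without the 10 richest cells. The causes were not tested. No paired analysis was possible because each group was 1 library. With 1 library a group, the animal, the day of work and the library cannot be told apart from the graft. Ctrl was the shallowest library, and 3 counts in its LepR-like stroma correspond to 0.425 CPM.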

Other observations

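Other Wnt genes differed in the mesenchymal pool and not in its chondrocyte-like cells at day 40. Rspo4, a further R-spondin, was at 46.5 CPM in the pool of Graft_D40, with Sham_D40 at 22.4 CPM, and was called higher in Graft_D40. Within chondrocyte-like cells it was at 88.9 CPM in Graft_D40 and 80.8 in Sham_D40 and was not called. Notum, a secreted enzyme that inactivates Wnt ligands, was at 51.6 CPM in the pool of Graft_D40, with Sham_D40 at 29.3 CPM, and at 94.7 CPM in chondrocyte-like cells of Graft_D40 and 101 CPM in those of Sham_D40, not called. Lef1, a nuclear partner of β-catenin, was at 52.4 CPM in the pool of Graft_D40, with Sham_D40 at 29.8 CPM, and at 95.9 CPM in chondrocyte-like cells of Graft_D40 and 103 CPM in those of Sham_D40, not called. 

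In the endothelium, whose clusters differed in size between libraries, the receptor Fzd8 was at 18.2 CPM in Graft_D40, with Sham_D40 at 36.3 CPM, and was called lower in Graft_D40. It was at 29.4 CPM in Graft_D19 and 20.8 in Ctrl, not called. The cell-cycle gene Ccnd1 was at 240 CPM in Graft_D19 against 110 in Ctrl and was called higher, and at 180 CPM in Graft_D40, with Sham_D40 at 166 CPM, not called. Bambi was at 113 CPM in Graft_D40, 168 in Sham_D40, 188 in Graft_D19 and 180 in Ctrl, and no comparison was called.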
